A study of Ovis aries with 15 samples.

Results

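Forkhead transcription factors are a family of DNA-binding proteins named after a Drosophila gene and sorted into subclasses by letter. The genes described here are those whose name in any of the deposited promoter tables begins with FOX, a letter from A to S and a digit. The rule found 33 genes of 18460 named in the 3 promoter tables, and it used names only, not measured values. Of the 33, 15 were listed for H3K27ac, 30 for H3K4me3 and 20 for H3K27me3. The tables came from chromatin immunoprecipitation sequencing of perirenal fat, the depot around the kidney, from wild type purebred merino sheep with no treatment. The design text puts the lambs at 80 days after birth, the growth protocol at 89 ± 7 days. Fetuses were 132 ± 1 days after conception, with term at 150 ± 3 days. H3K4me3 had 3 lambs and 2 fetuses, and H3K27ac and H3K27me3 each had 2 lambs and 2 fetuses. Each library was 1 animal, sex was not in the labels, and the lamb library titles carried a tag (VEH) absent from the fetal ones, which cannot be told apart from stage. Sheep perirenal fat is rich in brown fat cells before birth and takes on white fat character afterwards, and the series title names that transition.

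Forkhead proteins bind DNA through a winged-helix domain, and several can open closed chromatin. Many family members act as lineage selectors in the embryo, among them FOXA in endoderm and FOXF in lung and gut mesenchyme. Their genes commonly lie in CpG-rich regions that the Polycomb complex marks with H3K27me3 where they are silent. The FOXO subclass works differently. FOXO1, FOXO3 and FOXO4 are present in most tissues, and insulin signalling through AKT drives these proteins out of the nucleus. H3K27ac is found at working promoters, and H3K4me3 also at poised ones.

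Each promoter value was a deposited signal rescaled to the same library composition, so a value has no absolute unit, and every change is a log2 difference, lamb minus fetus. A promoter was called where the adjusted p of limma (Benjamini-Hochberg over every promoter of its table) was under 0.05. Depth, as reads in promoters inferred from the deposited values, was 5061861 to 6257855 in the H3K27ac libraries, 2476065 to 17541584 in the H3K4me3 libraries and 324662 to 430345 in the H3K27me3 libraries. The H3K4me3 libraries of lambs 2 and 3 were the shallowest of that mark, and 1 promoter took 7.64% and 8.03% of their signal. In H3K27ac, 5 of 10 adipocyte markers were lower in lambs, among them PLIN1 and UCP1, against 17.7% of all promoters. Of the 25% of promoters with the highest H3K27ac, which hold FABP4, LPL, PLIN1 and ADIPOQ, 46.4% fell. In the same mark 4 of 8 lymphocyte markers were higher, against 11.4% of all promoters. The summed H3K27ac of the adipocyte markers was 2221 to 2264 in lambs and 3182 to 3555 in fetuses. That of the lymphocyte markers was 1468 to 1639 in lambs and 1093 to 1110 in fetuses. No listed marker in a table was at 0 in any library. Fewer cells of a type and less of a mark per cell cannot be told apart in whole tissue, and the part of the marker shifts in the results on forkhead genes was not tested.

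The family divided into genes marked by Polycomb and genes marked as active, and several subclasses had members in more than 1 group. In all, 16 genes were in the H3K27me3 table without H3K27ac, 11 were in the H3K27ac table without H3K27me3, 4 were in both and 2 were in the H3K4me3 table alone. The Polycomb-marked genes without H3K27ac held every listed FOXA, FOXB, FOXE, FOXF, FOXH, FOXI and FOXL gene. They also held FOXD3 and FOXD4L1, FOXJ1, the switch gene of motile cilia, and from the FOXN subclass FOXN1 of the thymic epithelium and FOXN4 of the retina. The genes with H3K27ac and no H3K27me3 were FOXJ2, FOXJ3, FOXK1, FOXK2, FOXN2, FOXN3, FOXO1, FOXO3, FOXO4, FOXP1 and FOXR1. FOXC2, FOXD2, FOXO6 and FOXS1 were in all 3 tables. FOXM1, a driver of mitotic genes, and FOXR2 were in the H3K4me3 table alone. The FOXJ and FOXN subclasses thus had members on each side of the division, and in the FOXD and FOXO subclasses 1 gene had both marks. FOXR1 and FOXR2 were also in different groups. The FOXE, FOXH, FOXI and FOXL subclasses had only 1 listed gene each, so they could not be split.

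As a share of the genes named, 60.6% of forkhead genes were in the H3K27me3 table, against 34.3% of all genes in the tables. For H3K27ac the shares were 45.5% of forkhead genes and 71.6% of all genes, and for H3K4me3 90.9% and 70.0%. H3K27me3 and H3K4me3 together, the combination called bivalent, were present at 54.5% of forkhead genes and 19.1% of all genes. A gene in both tables need not carry both marks in the same cells. Each table lists only promoters whose deposited value reached about 50 in some library (at least 50.2 for H3K27ac, 50.7 for H3K4me3 and 51.5 for H3K27me3), so a gene outside a table is not shown to lack the mark. RefSeq lists 44 protein-coding sheep genes that meet the naming rule (assembly ARS-UI_Ramb_v3.0), and 12 of them were in none of the tables: FOXA3, FOXC1, FOXD1, FOXD4, FOXE3, FOXI2, FOXI3, FOXL2, FOXL3, FOXP2, FOXP3 and FOXP4. FOXD4L1 had no RefSeq entry of its symbol. FOXD4 and its relatives are near-identical copies in other mammals, so the reads given to FOXD4L1 are uncertain in origin.

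**Figure D1:**
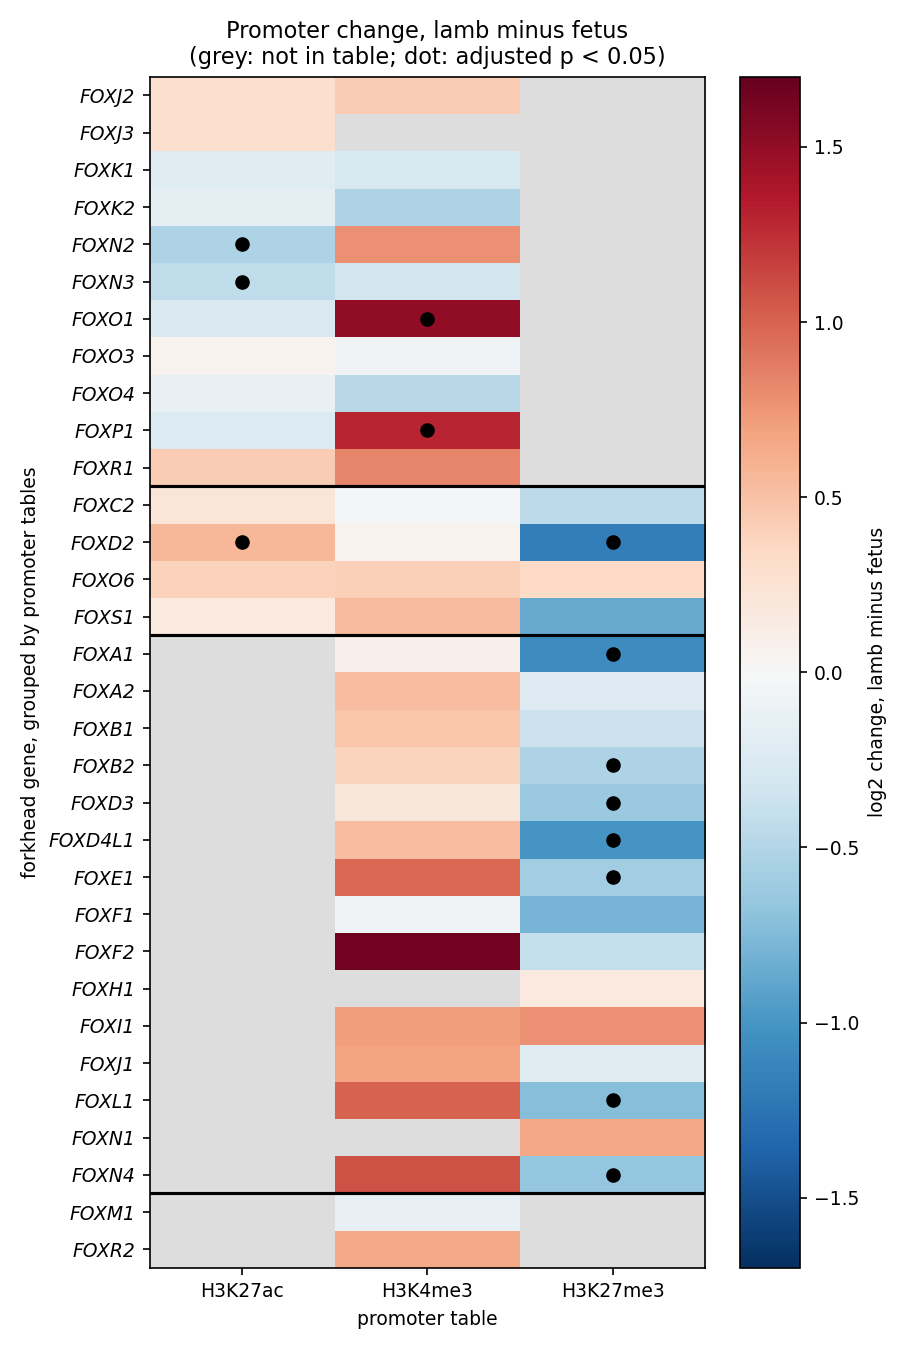
Log2 change, lamb minus fetus (colour, red higher and blue lower in lambs), at 32 of the 33 forkhead genes (rows) for each mark (columns), grey where the gene is not in that mark's table and a black dot where the limma adjusted p was under 0.05. Lines part the groups by table, from the top the 11 genes with H3K27ac and no H3K27me3, the 4 with both, 15 with H3K27me3 and no H3K27ac and the 2 with H3K4me3 alone; 8 of the 13 dots are in the H3K27me3 column, all blue.

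H3K27me3 fell at 9 of the Polycomb-marked forkhead promoters in lambs relative to fetuses. Of the 20 promoters measured, 9 fell and none rose by limma, and 1 promoter was higher and 12 were lower at an unadjusted p under 0.05 (13.4% and 16.8% of all promoters). The 9 of 20 in the family stood against 8.83% of all 6334 promoters lower, 4.42% higher and 13.2% called in either direction. The median change was -0.56 for the family and 0.02 for all promoters. Strongly marked promoters fell more often in general: among the 25% of all promoters with the highest mean H3K27me3, 26.3% fell, and that part of the table held 14 of the 20 forkhead promoters and all 9 that fell. The 14 forkhead promoters in it had a median change of -0.61, and the median of all promoters in it was -0.37. Of the 9 that fell, FOXD2 was at percentile 75.5 of mean level and the others at 94.3 to 99.4. A comparison with other promoters at that narrower level was not made, so the part of level in the fall was not tested. Every lamb was below every fetus at 14 of the 20 forkhead promoters (29.3% of all promoters) and above at 3 (30.5%).

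The steepest falls were in the FOXD and FOXA subclasses. FOXD2, a factor of embryonic mesenchyme and kidney, had H3K27me3 values of 183 and 148 in lambs, against 366 and 384 in fetuses. Its log2 change was -1.18 (SE 0.25, limma adjusted p = 0.00488). FOXA1, which opens chromatin in endoderm-derived organs, had 311 and 379 in lambs, against 662 and 788 in fetuses, a change of -1.07 (SE 0.2, limma adjusted p = 0.00178). In both genes the highest lamb lay well below the lowest fetus. FOXA2, its partner in endoderm, did not separate by stage, with 219.5 and 157 in lambs and 178 and 263 in fetuses (change -0.22, SE 0.29, limma adjusted p = 0.636). FOXD4L1, the most strongly marked forkhead promoter, had 449 and 791 in lambs, against 1173 and 1212 in fetuses (change -1.0, SE 0.2, limma adjusted p = 0.003). FOXD3, which specifies neural crest, had 406 and 486 in lambs, against 662 and 714 in fetuses (change -0.63, SE 0.18, limma adjusted p = 0.0288). All 3 FOXD genes in the table therefore fell, while of the FOXA genes FOXA1 alone passed the threshold; the difference between FOXA1 and FOXA2 was not tested.

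The other genes with a lower H3K27me3 include regulators of the gut, retina and thyroid. FOXL1 of the gut mesenchyme had 423 and 375 in lambs, against 662 and 659.8 in fetuses (change -0.73, SE 0.19, limma adjusted p = 0.0145). FOXN4, needed for retinal cell fates in the mouse, had 432 and 469.9 in lambs, against 729 and 697 in fetuses (change -0.66, SE 0.18, limma adjusted p = 0.0196). At each of these genes the stages did not overlap, and the fetal values were close to each other. FOXE1, a thyroid factor, had 482 and 557 in lambs, against 686 and 885 in fetuses (change -0.59, SE 0.18, limma adjusted p = 0.0354). FOXB2 had 577 and 478 in lambs, against 723 and 798 in fetuses, and lay at the edge of the threshold (change -0.53, SE 0.18, limma adjusted p = 0.04995). Its subclass partner FOXB1, active in the mouse brain, had 721 and 581 in lambs and 840.2 and 821 in fetuses and was not called (change -0.36, SE 0.17, limma adjusted p = 0.154). On the deposited scale the lowest lamb value among the 9 promoters that fell was 128, above the 51.5 that every listed promoter reached in some library, so none of them entered the table through the fetuses alone.

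Among the promoters not called, the FOXF genes had lower mean values in lambs. FOXF1, a hedgehog-responsive factor of lung and gut mesenchyme, had 164 and 124 in lambs and 242 and 253 in fetuses (change -0.79, SE 0.29, limma adjusted p = 0.0681). FOXF2 had 239 and 251 in lambs and 356 and 296 in fetuses (change -0.4, SE 0.24, limma adjusted p = 0.26). The stages did not overlap at either gene, but neither change passed the threshold. FOXI1, known from the inner ear and the acid-secreting cells of the kidney, ran the other way. It had 468 and 305 in lambs and 266 and 182 in fetuses (change 0.78, SE 0.26, limma adjusted p = 0.0544), and the authors' deposited table gives a fold of 1.73 with an adjusted p of 0.0478. The remaining uncalled changes lay between -0.86 for FOXS1 and 0.66 for FOXN1.

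**Figure D2:**
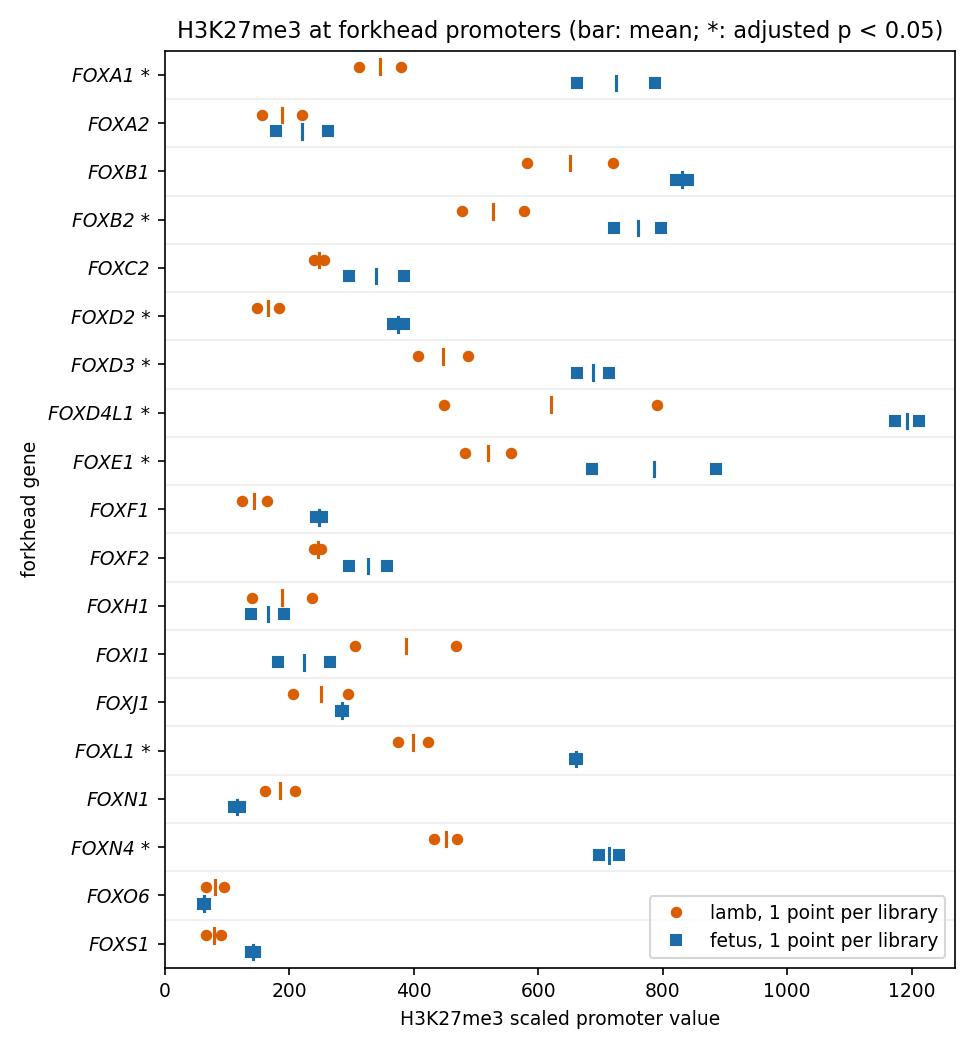
H3K27me3 scaled value at 19 of the 20 forkhead promoters in the table, 1 point per library, with lambs above fetuses in each row, bars at the means and an asterisk where the limma adjusted p was under 0.05. FOXA1 and FOXD2 show lambs well below fetuses, and FOXI1 and FOXN1 show the opposite order without passing the threshold.

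The H3K27me3 counts depended on single animals. Without lamb 2, none of the 20 forkhead promoters and none of all 6334 passed limma's threshold (13 and 1797 at an unadjusted p under 0.05). The number called also fell without fetus 2 and without fetus 1 and rose without lamb 1, both in the family and over all promoters. The family's median change in those 3 fits was -0.5, -0.65 and -0.52, and that of all promoters was 0.02, -0.01 and 0.03. All 9 kept a negative change in each of these fits. With column totals in place of TMM factors 6 of the 9 were called lower and FOXI1 higher, while the split over all promoters became 435 higher and 368 lower, against 280 higher and 559 lower with TMM. With the deposited scaling 5 of the 9 were called. The authors' deposited table calls 7 forkhead promoters lower and 1 higher at an adjusted p under 0.05.

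H3K27ac was called at 3 of the 15 forkhead promoters. Of 15 promoters 1 rose, FOXD2, and 2 fell, FOXN2 and FOXN3. The 20.0% called stood against 29.1% of all 13222 promoters (11.4% higher and 17.7% lower). With 15 promoters that gap is too small to read as a trait of the family. The median change was 0.06 for the family and 0.02 for all promoters. FOXD2 had 178 and 173 in lambs, against 134 and 104 in fetuses (change 0.57, SE 0.19, limma adjusted p = 0.0333). FOXN3, described in human cells as a cell-cycle checkpoint suppressor, had 242 and 259 in lambs, against 319 and 357 in fetuses (change -0.43, SE 0.13, limma adjusted p = 0.0182). FOXN2 had 268 and 291 in lambs, against 317 and 503 in fetuses (change -0.52, SE 0.16, limma adjusted p = 0.0263). The stages did not overlap at these 3 genes. Every lamb was above every fetus at 5 of the 15 promoters (33.0% of all promoters) and below at 7 (33.5%). At FOXN2 fetus 2 stood far above fetus 1, and without fetus 2 its adjusted p was 0.317. Both FOXN genes lie among the 25% of promoters with the highest H3K27ac, of which 46.4% fell.

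The FOXO genes had no called H3K27ac change. FOXO1, which restrains fat cell differentiation in mouse cells, had 213.5 and 224 in lambs and 275 and 245 in fetuses (change -0.25, SE 0.14, limma adjusted p = 0.184). FOXO3 had 82.4 and 91.5 in lambs and 109 and 63.4 in fetuses, and FOXO4 had 172 and 180.4 in lambs and 191 and 194 in fetuses. FOXO6 had 129 and 136 in lambs and 115 and 88.9 in fetuses. Lambs were below fetuses at FOXO1 and FOXO4, above them at FOXO6 and overlapped them at FOXO3. FOXP1, a repressor of the thermogenic programme in mouse fat cells, had 306 and 290.3 in lambs and 314 and 390.1 in fetuses (change -0.23, SE 0.13, limma adjusted p = 0.198). It was the forkhead promoter with the second highest mean H3K27ac, after FOXN2. FOXJ3 had 208 and 258 in lambs and 158 and 231 in fetuses, and FOXK1 and FOXK2, regulators of glycolysis in mouse tissues, had changes of -0.2 and -0.15 that were not called.

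**Figure D3:**
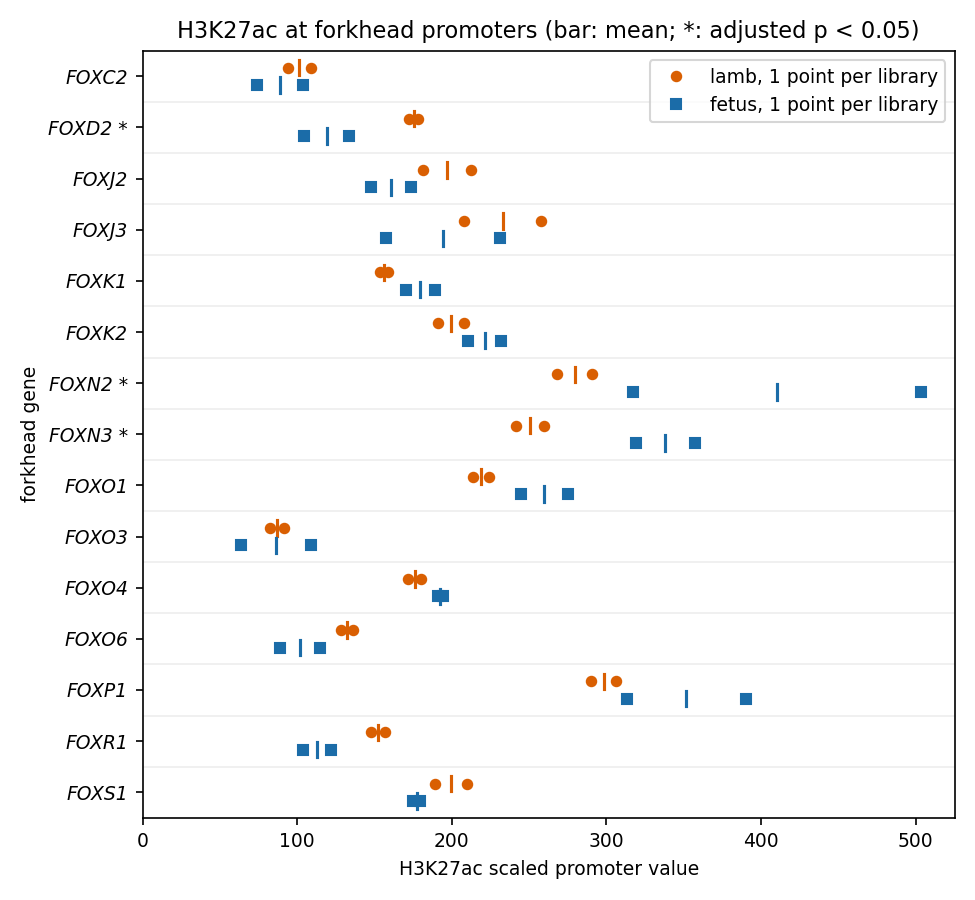
H3K27ac scaled value at each of the 15 forkhead promoters in the table, 1 point per library, with lambs above fetuses in each row, bars at the means and an asterisk where the limma adjusted p was under 0.05. FOXD2 is higher in lambs, FOXN2 and FOXN3 are lower, and the FOXO genes lie close together between stages.

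Scaling sets how many H3K27ac promoters are called in each direction. With TMM 1508 promoters of the whole table were higher and 2341 lower, with column totals 2314 were higher and 1789 lower, and with the deposited scaling 167 were higher and 4012 lower with a median change of -0.3 over all promoters. FOXD2 kept its positive change in each, but with the deposited scaling its adjusted p was 0.451, and it was 0.366 without lamb 1 and 0.261 without lamb 2. FOXN3 was lost without lamb 1 (adjusted p = 0.237) and without lamb 2 (adjusted p = 0.0819). The number called fell without lamb 1 and rose without fetus 1, both among the 15 promoters and over all promoters.

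H3K4me3 rose at FOXO1 and FOXP1 and fell at no forkhead promoter by limma, and at an unadjusted p under 0.05 it was higher at 7 (23.3%, against 21.1% of all promoters) and lower at 0 (against 13.9%). The 2 promoters called are 6.67% of the 30 in the table, against 10.2% of all 12922 promoters (8.33% higher and 1.9% lower). FOXO1 had 177, 319 and 319.9 in lambs, against 119 and 70.7 in fetuses (change 1.51, SE 0.43, limma adjusted p = 0.0244). FOXP1 had 210.2, 355 and 392 in lambs, against 100.2 and 158 in fetuses (change 1.29, SE 0.38, limma adjusted p = 0.0297). At both genes every lamb was above every fetus, and lamb 1 was the lowest lamb. The same separation was seen at 7 of the 30 promoters (25.7% of all promoters), and the lambs were all below at 3 (22.8%). At the same promoters H3K27ac had negative changes that were not called. Both lie among weak H3K4me3 promoters, in the second 25% of the table from the bottom by mean value, of which 15.3% rose and whose median change was 0.39. In H3K4me3, 3 of 7 lymphocyte markers also rose, and their summed value was 1183 to 2006 in lambs and 561 to 846 in fetuses; their part in the rise of FOXP1, which B cells need in the mouse, was not tested.

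The calls at FOXO1 and FOXP1, though not the direction of the changes, depended on which libraries were fitted. Without the shallow lambs 2 and 3 the changes were 0.96 at FOXO1 and 0.76 at FOXP1, and no promoter of the family and none of all 12922 was called in limma (0 and 102 at an unadjusted p under 0.05). Without lamb 2 alone and without lamb 3 alone the changes were 1.37 and 1.36 at FOXO1 and 1.19 and 1.11 at FOXP1. None of the 30 was called in those fits (2 and 4 unadjusted), which called 50 and 12 of all promoters. Without fetus 1 and without fetus 2 the changes were 1.87 and 1.14 at FOXO1 and 0.96 and 1.61 at FOXP1. The number called rose without fetus 1 and fell without fetus 2, both in the family and over all promoters. With the deposited scaling 7 forkhead promoters fell and none rose, and over all promoters 55 rose and 5623 fell with a median change of -1.28. Relative to that median FOXO1 and FOXP1 stayed high, with changes of 0.23 and 0.01.

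The other FOXO promoters had no called H3K4me3 change. FOXO3 had 528, 396 and 476 in lambs and 589 and 397 in fetuses, and the stages overlapped. FOXO4, on chromosome X, had 583, 553 and 504 in lambs and 610.4 and 935 in fetuses (change -0.47, SE 0.27, limma adjusted p = 0.194). FOXO6 had 173, 200.4 and 219.5 in lambs and 206 and 106 in fetuses. FOXM1 was among the weakest promoters of the table, with 49.3, 118 and 72.4 in lambs and 75.4 and 91.0 in fetuses. The stages overlapped at FOXM1 and its fit is imprecise (change -0.14, SE 0.68).

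The highest H3K4me3 in the family was at FOXK2, with 670.3, 606 and 577 in lambs and 718 and 1088 in fetuses (change -0.52, SE 0.27, limma adjusted p = 0.158). FOXN3 followed with 631, 495 and 556 in lambs and 435 and 1094 in fetuses, where the fetuses themselves lay further apart than the stages. The Polycomb-marked FOXB1 had 546, 599 and 616 in lambs and 718 and 249.9 in fetuses, again with the lambs between the fetuses. FOXF1 had 291, 258 and 245 in lambs and 400.3 and 189.7 in fetuses. FOXF2, one of the weakest, had 69.7, 200.4 and 133 in lambs and 73.8 and 20.3 in fetuses (change 1.64, SE 0.7, limma adjusted p = 0.097). Of the 14 Polycomb-marked promoters without H3K27ac that were in the H3K4me3 table, 13 had a positive change, with a median of 0.52, and none was called. The tally changed with the fetus fitted and with the scaling. Without fetus 2, 6 of the 14 were positive, with a median of -0.09. Without fetus 1 all 14 were positive, with a median of 1.3. With the deposited scaling 1 was positive and 13 were negative. With all libraries, those nearest the threshold in limma were FOXE1 (change 0.97, adjusted p = 0.0556), FOXN4 (1.08, 0.0557) and FOXL1 (1.0, 0.0866). At FOXN4 and FOXL1 the stages overlapped in H3K4me3. All 3 were called lower in H3K27me3, as were 8 of all 16 Polycomb-marked promoters without H3K27ac. A link between the 2 changes was not tested. The family's median change was 0.45, and it was -0.04 without fetus 2, 0.75 without fetus 1 and -0.83 with the deposited scaling. The medians of all promoters in the same fits were 0.0, -0.03, 0.07 and -1.28.

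**Figure D4:**
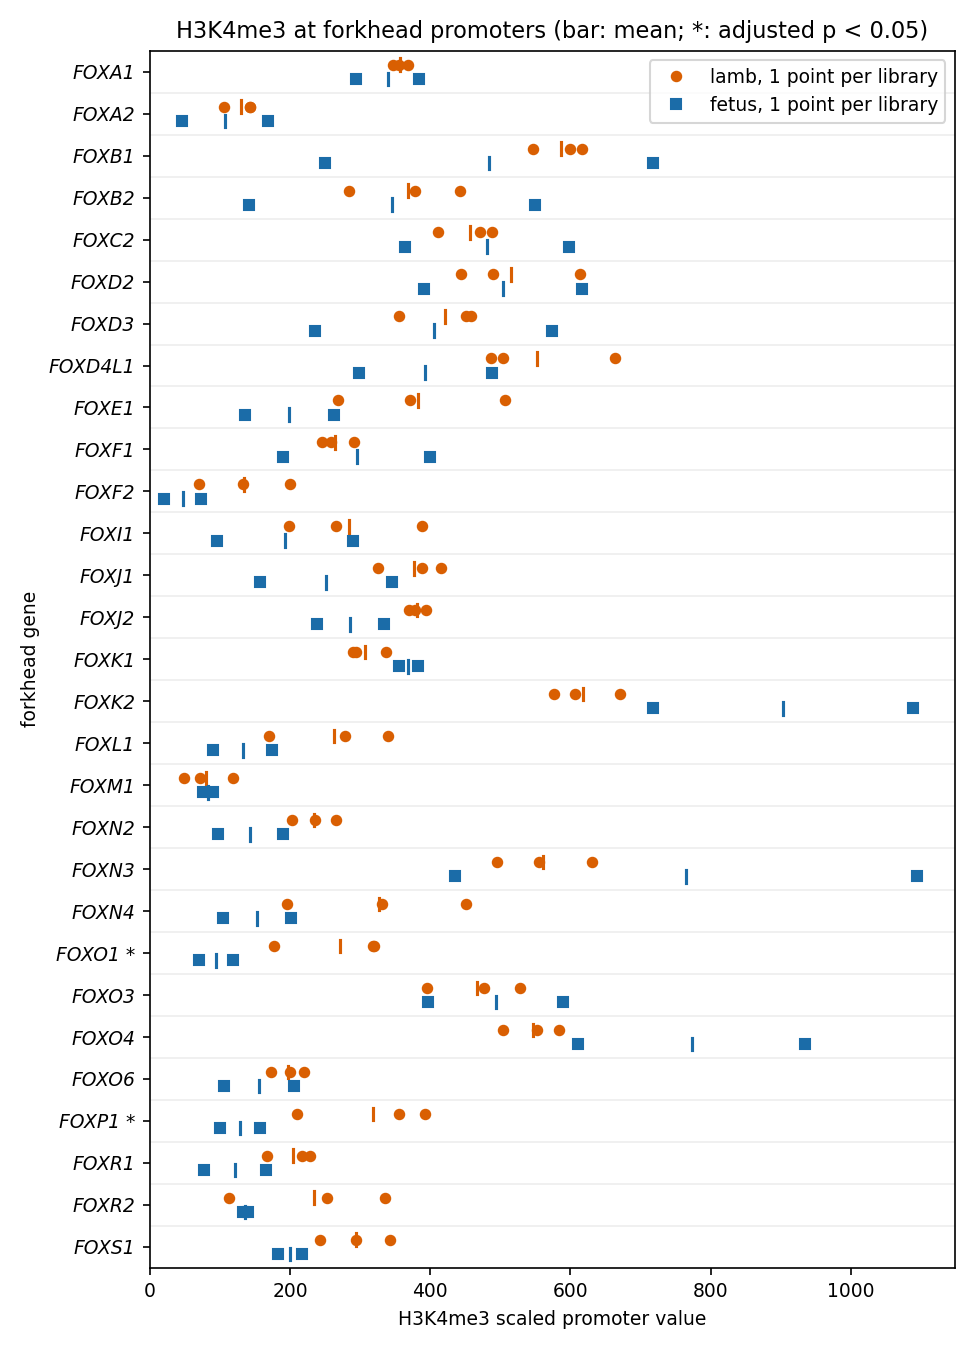
H3K4me3 scaled value at 29 of the 30 forkhead promoters in the table, 1 point per library, with the 3 lambs above the 2 fetuses in each row, bars at the means and an asterisk where the limma adjusted p was under 0.05. FOXO1 and FOXP1 are higher in lambs, while FOXN3, FOXK2 and FOXB1 show fetuses far apart from each other.

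The 2 fetal H3K4me3 libraries differed along the Polycomb division. At all 18 forkhead promoters that were also in the H3K27me3 table fetus 1 was above fetus 2, with a median log2 difference of 0.96. At the 12 forkhead promoters outside the H3K27me3 table fetus 1 was above fetus 2 at 5, with a median difference of -0.17. The same split ran through the whole mark: fetus 1 was above fetus 2 at 79.2% of the 3522 promoters in the H3K27me3 table and at 37.9% of the 9400 outside it. The spread between fetuses enters every H3K4me3 test of a Polycomb-marked promoter above, and depth differed between them, with 11139950 promoter reads in fetus 1 and 17541584 in fetus 2. The lamb libraries split along the same line over all promoters, and less clearly in the family. The mean of lambs 2 and 3 was above lamb 1 at 14 of the 18 forkhead promoters in the H3K27me3 table, with a median log2 difference of 0.29. Outside it the count was 7 of 12, with a median difference of 0.15. Over all promoters the counts were 2579 of 3522 and 3893 of 9400, with median log2 differences of 0.43 and -0.11. The part of depth in these differences was not tested.

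Of the 4 genes in all 3 tables, FOXD2 alone changed in both H3K27ac and H3K27me3, with the first higher and the second lower in lambs. Among all 2297 promoters in both of those tables, 117 (5.09%) did the same. H3K4me3 at FOXD2 had 614, 490.1 and 444 in lambs and 617 and 391 in fetuses (change 0.06, SE 0.28, limma adjusted p = 0.889). FOXC2, a regulator of mesenchyme and lymphatic vessels that promotes brown-like fat when overexpressed in mice, had no called change. Its H3K27ac was 109 and 94.1 in lambs and 104 and 74.2 in fetuses, its H3K27me3 was 239 and 256 in lambs and 296 and 384 in fetuses, and its H3K4me3 was 471, 410.4 and 488 in lambs and 597 and 364 in fetuses. The stages overlapped for H3K27ac and H3K4me3, and for H3K27me3 lambs were lower without passing the threshold (change -0.45, SE 0.24, limma adjusted p = 0.218). FOXS1 had H3K27me3 of 65.5 and 90.7 in lambs and 145 and 138 in fetuses (change -0.86, SE 0.38, limma adjusted p = 0.129). Its H3K27ac was 189 and 209.7 in lambs and 179.7 and 175 in fetuses, and its H3K4me3 was 243, 295 and 343 in lambs and 217 and 182 in fetuses. FOXO6 had the weakest H3K27me3 of the family, 94.99 and 66.0 in lambs and 60.5 and 64.0 in fetuses, which are about 16 to 29 reads a library as inferred from the value steps, so a modest change was not detectable at this depth.

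**Figure D5:**
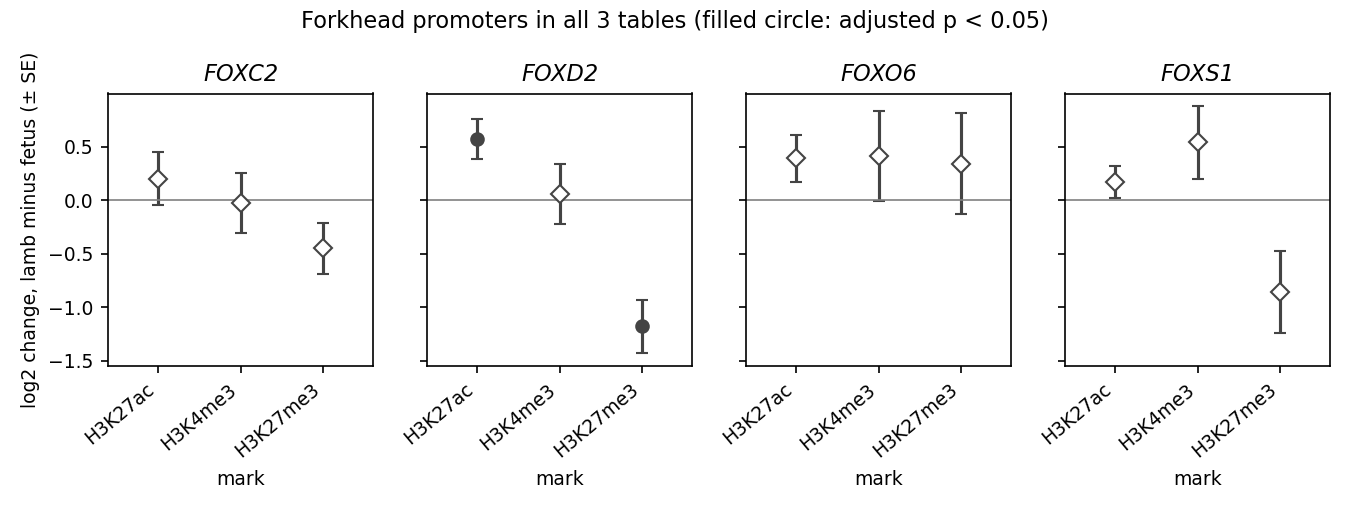
Log2 change, lamb minus fetus, of FOXC2, FOXD2, FOXO6 and FOXS1 (panels) in each mark, with whiskers of 1 SE and a filled circle where the limma adjusted p was under 0.05. FOXD2 alone has filled circles, above 0 for H3K27ac (0.57) and below 0 for H3K27me3 (-1.18).

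Several genes of the wider FOXO pathway changed in H3K27ac, where 29.1% of all promoters were called. In H3K27ac, 2 of 13 FOXO pathway genes rose and 5 fell, with a median of -0.26. AKT2, the kinase that excludes FOXO from the nucleus in insulin-responsive tissue, averaged 168 ± 20.1 in lambs and 289 ± 71.2 in fetuses (SD, n = 2 each, change -0.76, limma adjusted p = 0.00292). SIRT1 and SIRT2, deacetylases of FOXO proteins, fell by 0.84 and 0.4, and CITED2, a transcriptional co-regulator, fell by 0.97. PDPK1 and PIK3CA, kinases upstream of AKT, rose by 0.57 and 0.51.

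In H3K27ac, 7 of 15 established FOXO target genes fell and SESN3 rose, with a median of -0.36. Over all promoters 17.7% fell and 11.4% rose, and of the 25% with the highest H3K27ac 46.4% fell. The targets that fell were GABARAPL1 and ATG12 of autophagy, SOD2 and CAT, which detoxify reactive oxygen, GADD45A and CDKN1B, which restrain the cell cycle, and G6PC of glucose output. GABARAPL1 averaged 389.8 ± 26.5 in lambs and 637 ± 7.13 in fetuses (SD, n = 2 each, change -0.71, limma adjusted p = 0.000349). In H3K4me3 KLF15 rose and none fell of 13, in a table where 8.33% of all promoters rose and 1.9% fell. In H3K27me3 IGFBP1 fell, 1 of 3, in a table where 8.83% of all promoters fell. Of the 25% with the highest H3K27me3, which hold IGFBP1, 26.3% fell. Of 8 FOXM1 target genes in the H3K27ac table PLK1 rose by 0.6 and KIF20A fell by 0.58, and of 9 in the H3K4me3 table none was called in limma. Of the hedgehog genes that act upstream of FOXF and FOXL1, HHIP rose in H3K27ac (1 of 5) and SUFU in H3K4me3 (1 of 7).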

How the data were processed

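Chromatin from lamb and fetal perirenal fat was immunoprecipitated for each mark, and reads were mapped to Oar_v3.1 with CLC Genomics Workbench, per the labels. The submitters' processing notes also name bedtools 2.19.0, edgeR and MACS without roles. The deposited promoter values are a scaled signal with 1 column per library. Within a library they are whole multiples of 1 step, taken as 1 read, at 99.98% or more of promoters (tolerance 0.05 reads), from which the depths are inferred. A stricter check did not accept the values as recovered reads, so no count test was run on them. No source used here gives the scaling target or the window width, so values rank promoters and are not per length. The peak tables the authors deposited hold raw counts per region, used only for depth (7233767 to 58333449 reads per library). The authors' deposited tables also give a signed fold, a score on no fixed range, and p-values of what the file headers call an EDGE test. In the H3K27me3 table the headers of fold and p-value stand over each other's values. Pooled input was not analysed here.

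Column totals multiplied by TMM factors (edgeR 4.0.16) served as the divisor of each value. The log2 of the result plus 1 entered limma 3.58.1 (trend, R 4.3.3), lamb minus fetus, per table, with Benjamini-Hochberg adjustment and a threshold of 0.05. No filter on low values was applied, and 1 line without values in the H3K27me3 table was left out. The fit was run on simulated data with a fixed spread between libraries that was not estimated from these data. It therefore does not show how reliable the calls are here. An exact permutation test could reach a p of no less than 0.333 with 2 against 2 libraries and 0.2 with 3 against 2, so none is given. Values per library are given for promoters called in any mark, genes in all 3 tables, the FOXO, FOXC, FOXF, FOXP and FOXM subclasses and the 5 highest promoters of each mark; other genes are named only from the FOXO, FOXM1, hedgehog and cell type lists or beside a forkhead gene. The members, lists and this rule were chosen with earlier results of these data known. Some genes are counted in the totals and not reported here. RefSeq names matched 32 of the 33 genes.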

Additional observations from a re-analysis of the deposited data

How the results depend on the processing

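All 14 forkhead changes called kept their direction in every fit run, but few of the counts held. With 2 or 3 libraries a stage, leaving out 1 library moved the number of forkhead promoters called from 3 to between 0 and 6 for H3K27ac, from 2 to between 0 and 16 for H3K4me3 and from 9 to between 0 and 11 for H3K27me3. Over all promoters the ranges were 1177 to 5846, 12 to 5680 and 0 to 1405. A lone library left in a stage is assumed to vary like the others. With the deposited scaling the forkhead counts were 7 for H3K4me3 and 5 for H3K27me3, and the whole-table counts 5678 and 540. Without lambs 2 and 3 no H3K4me3 promoter was called, in the family (0) or the table (0). The pseudocounts of 0.5 and 10 and a minimum mean of 50 left every count within 1.5 times. The H3K27me3 reads at forkhead promoters were few and limit what can be seen there. The planned count tests of edgeR and DESeq2 were not run, since the promoter values are a scaled signal.

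A replicate number stands for 1 animal among the lambs and another among the fetuses. By the labels the numbers do not pair animals. Same-numbered libraries deviated together with r = 0.277 for H3K27ac, -0.412 and -0.346 for H3K4me3 and 0.0988 for H3K27me3. In H3K27ac and H3K27me3 the r is the same for either number, because the deviations within a stage mirror each other. With so few libraries these values cannot decide whether same-numbered libraries shared processing, which was not tested. With the replicate block 3 H3K27ac, 0 H3K4me3 and 11 H3K27me3 forkhead promoters were called in limma (0 H3K4me3 promoters at an unadjusted p under 0.05), and over all promoters 5255, 3 and 1252.

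Among the named promoters 54 values changed sign, all at promoters not called with all libraries under TMM, and the cause was not tested. With the deposited scaling the H3K27ac log2 changes were FOXC2 -0.12, FOXJ2 -0.03, FOXJ3 -0.04, FOXO3 -0.26 and FOXS1 -0.15. With the deposited scaling the H3K4me3 log2 changes were FOXA1 -1.2, FOXA2 -0.74, FOXB1 -0.82, FOXB2 -0.91, FOXD2 -1.23, FOXD3 -1.1, FOXD4L1 -0.77, FOXE1 -0.31, FOXI1 -0.57, FOXJ1 -0.6, FOXJ2 -0.85, FOXL1 -0.28, FOXN2 -0.5, FOXN4 -0.2, FOXO6 -0.87, FOXR1 -0.45, FOXR2 -0.64 and FOXS1 -0.74. With column totals the H3K4me3 log2 changes were FOXC2 0.1, FOXF1 0.07 and FOXO3 0.07. Without lambs 2 and 3 the H3K4me3 log2 changes were FOXC2 0.03, FOXF1 0.1, FOXO3 0.15 and FOXR2 -0.24. Leaving out 1 library at a time gave H3K27ac ranges of FOXC2 -0.02 to 0.45 and FOXO3 -0.31 to 0.45. Leaving out 1 library at a time gave H3K4me3 ranges of FOXA1 -0.11 to 0.28, FOXA2 -0.38 to 1.44, FOXB1 -0.29 to 1.23, FOXB2 -0.6 to 1.35, FOXC2 -0.39 to 0.32, FOXD2 -0.27 to 0.39, FOXD3 -0.46 to 0.83, FOXF1 -0.6 to 0.47, FOXI1 -0.08 to 1.5, FOXM1 -0.47 to 0.19, FOXN3 -0.97 to 0.36, FOXO3 -0.35 to 0.22 and FOXO6 -0.07 to 0.89. Leaving out 1 library at a time gave H3K27me3 ranges of FOXA2 -0.52 to 0.06, FOXH1 -0.22 to 0.53 and FOXJ1 -0.47 to 0.05.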

Other observations

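By gene order in RefSeq (ARS-UI_Ramb_v3.0), FOXF1, MTHFSD, FOXC2 and FOXL1 follow each other on chromosome 14 with no other protein-coding gene between them. FOXF1, FOXC2 and FOXL1 were all in the H3K27me3 and H3K4me3 tables, with H3K27me3 changes of -0.79, -0.45 and -0.73, of which FOXL1 alone was called, and FOXC2 alone of the 3 had H3K27ac. MTHFSD between them was in the H3K27ac and H3K4me3 tables and not in the H3K27me3 table. Its H3K27ac averaged 144 ± 8.51 in lambs and 120.7 ± 11.4 in fetuses (SD, n = 2 each) and was not called (limma adjusted p = 0.345). FOXE3 beside FOXD2 on chromosome 1 and FOXC1 beside FOXF2 on chromosome 20 were in none of the tables. EXOC2, close to FOXF2 in gene order, rose in H3K27ac, with 157 ± 5.78 in lambs and 104.5 ± 21.2 in fetuses (SD, n = 2 each, change 0.6, limma adjusted p = 0.0386).

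Markers of other cell types moved in both directions, in a table where 17.7% of all promoters fell and 11.4% rose. Of the 25% of promoters with the highest H3K27ac, which hold NOS3, EMCN and TEK, 46.4% fell. In H3K27ac 3 of 8 endothelial markers fell, 2 of 5 smooth muscle and pericyte markers rose and 1 fell, and 1 of 5 macrophage markers rose and 1 fell. Of the regulatory T cell markers 1 of 2 fell, of the adrenal markers 1 of 3 rose, and of the skeletal muscle markers 1 of 2 rose. None of the mesothelial markers and none of the ciliated and other epithelial markers in that table, 2 of each, was called in limma.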
